A study of Mus musculus with 6 samples.

Results

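Transcripts of 10 transcription factors of the neuroendocrine lineage were compared between mouse prostate cancer cells given valproic acid (VPA) and control cells. The 10 genes were Sox2, Sox4, Sox11, Insm1, Neurod1, Foxa2, Onecut2, Pou3f2, Myt1 and Prox1, out of 19938 genes measured. They were named for their role, but with earlier results of these data known. Each gene was read from the probe set that carries its symbol alone and has the highest mean over the arrays, and all 10 had one. VPA, a branched-chain fatty acid and anticonvulsant, inhibits class I histone deacetylases. The samples were 3 VPA and 3 control biological replicates, each on its own Affymetrix mouse Gene 1.0 ST array, and the groups rest on the sample titles. The other fields describe the VPA samples as undifferentiated embryonic stem cells of strain Stra8-EGFP/Rosa26 and the control samples as differentiated ones of strain 129SV, so strain, cell type and treatment cannot be told apart if those fields hold. Neither a dose, nor a treatment time, nor the name of a cell line stands in the sources used here.

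Neuroendocrine cells are hormone-secreting epithelial cells with dense-core vesicles and neuron-like gene expression, and they are rare in the normal prostate. A cascade of transcription factors that also acts in neurons and in the endocrine pancreas sets up this state. Several of these factors are known from prostate tumours that lose their luminal, androgen-dependent identity. Many neuronal genes are held silent in other cells by a repressor complex that recruits histone deacetylases.

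None of the 10 factors passed the test. In limma's moderated test over all genes, called at an adjusted p under 0.05, 0 of 10 were higher and 0 of 10 lower with VPA, where 2.34% of all genes tested were called, 1.71% up and 0.632% down. With no adjustment, 2 had a p under 0.05, Sox2 and Pou3f2, both lower with VPA, where 18.1% of all genes were under that limit and 8.30% were lower. A per-gene test without moderated variances left 1 of 10 under it, Pou3f2, where 14.5% of all genes were under it, and after adjustment that test called 0 of all genes. The VPA minus control differences ran from -0.32 to 0.18 on the log2 scale, with a median of -0.08 against -0.04 for all genes. The difference was below 0 for 8 of 10 factors, as it was for 58.6% of all genes. None of the 10 intervals of 95%, taken gene by gene, reached a 1.5-fold increase or a 2-fold decrease. The limit for decreases was the wider, and the Sox2 interval did include a 1.5-fold decrease. The lowest bound was 0.65-fold, for Sox2, and the highest was 1.40-fold, for Sox11. The arrays give no detection call and a log2 value depends on the probes of each gene, so levels are compared between arrays for 1 gene and not between genes. In these bulk samples a difference in the number of cells of a type and one in the RNA per cell cannot be told apart.

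**Figure D1:**
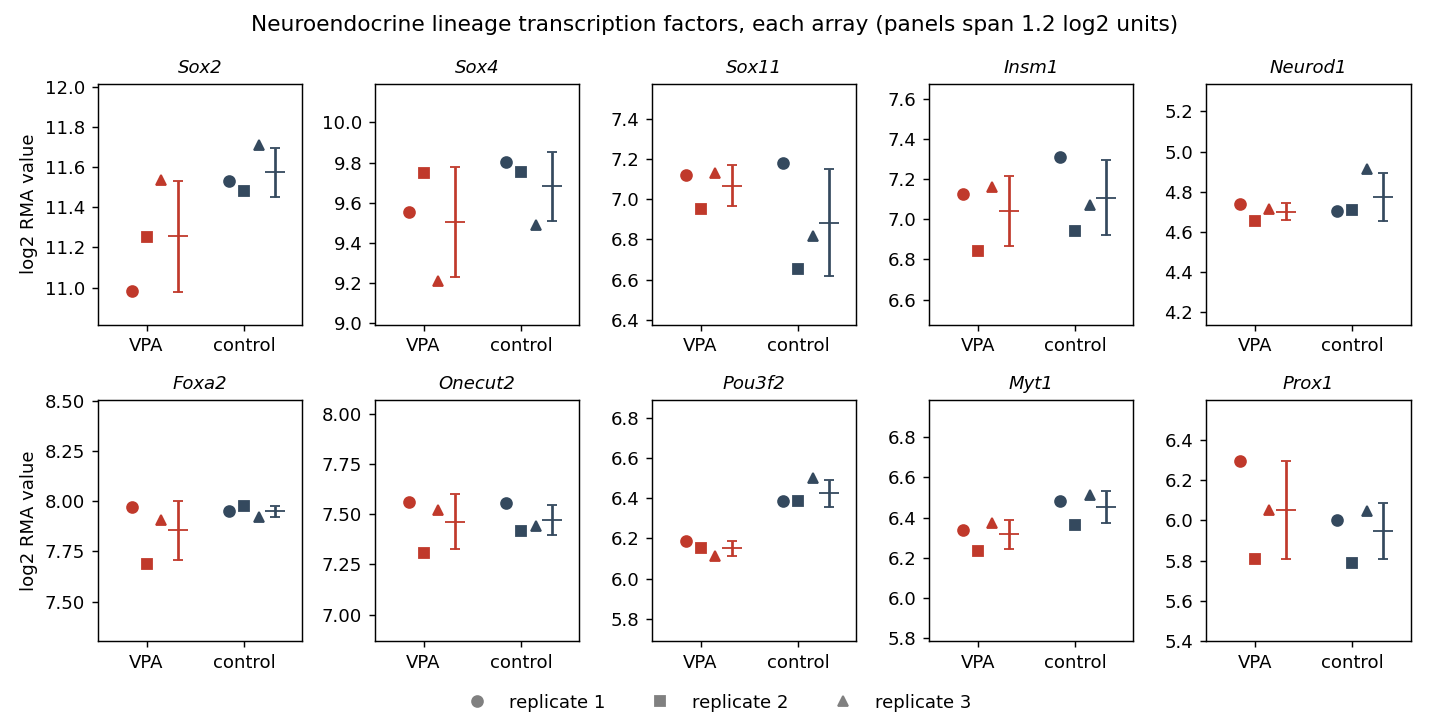
Log2 value (y axis) of the 10 factors on each array, with a panel per gene spanning 1.2 log2 units, VPA arrays on the left in red and control arrays on the right in grey-blue. Symbols give the replicate number, bars the mean and SD of 3 arrays; the groups are separate for Pou3f2 and overlap for the other 9.

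Because the results turn on Sox2 and Pou3f2, which had the smallest unadjusted p, and on the paralogues Sox4 and Sox11, whose differences had opposite signs, the 250 bases before their annotated start sites are shown. The sequences are from RefSeq (GRCm38.p6), at chr3:34649745-34649994 on the plus strand for Sox2 and on the minus strand at chr4:22488367-22488616 for Pou3f2, chr13:28953700-28953949 for Sox4 and chr12:27342719-27342968 for Sox11. Capitals mark the CCAAT box (CCAAT), the GC box (GGGCGG) and the E-box with a GC centre (CAGCTG), each on either strand.
Sox2: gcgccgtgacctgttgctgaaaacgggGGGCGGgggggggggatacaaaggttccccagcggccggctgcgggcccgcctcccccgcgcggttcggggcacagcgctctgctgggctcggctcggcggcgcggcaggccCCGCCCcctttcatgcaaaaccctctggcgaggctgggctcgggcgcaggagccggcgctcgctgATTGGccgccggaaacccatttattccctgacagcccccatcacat
Pou3f2: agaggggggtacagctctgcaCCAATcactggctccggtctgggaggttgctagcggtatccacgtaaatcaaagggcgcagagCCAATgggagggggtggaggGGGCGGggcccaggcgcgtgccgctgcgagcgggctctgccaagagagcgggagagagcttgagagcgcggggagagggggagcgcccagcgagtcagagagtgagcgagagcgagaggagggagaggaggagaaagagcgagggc
Sox4: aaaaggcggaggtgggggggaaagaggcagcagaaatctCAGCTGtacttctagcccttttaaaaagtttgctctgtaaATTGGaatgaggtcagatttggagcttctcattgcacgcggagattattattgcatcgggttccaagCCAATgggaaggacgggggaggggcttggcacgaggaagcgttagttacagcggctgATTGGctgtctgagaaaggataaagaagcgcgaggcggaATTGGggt
Sox11: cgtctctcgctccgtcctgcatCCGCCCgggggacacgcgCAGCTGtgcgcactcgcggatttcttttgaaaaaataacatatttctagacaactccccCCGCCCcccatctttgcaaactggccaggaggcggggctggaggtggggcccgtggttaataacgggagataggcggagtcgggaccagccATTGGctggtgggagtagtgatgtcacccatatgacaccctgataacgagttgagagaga
Of the 10 factors 8, all but Insm1 and Onecut2, were matched to such windows, 13 in all because 3 genes have several annotated starts. The E-box CAGCTG, a site type bound by proneural basic helix-loop-helix factors, was found in the windows of Sox4 and Sox11 and of no other factor, beginning at positions -211 and -210 from the start site. It occurs in 12.7% of the 19177 windows of all tested genes. The CCAAT box was found in all 4 windows shown and in 8 of 13 windows of the factors, against 34.5% of all windows. GC boxes stood in the windows of Sox2, Pou3f2 and Sox11, and again in 8 of 13 windows, against 45.5% of all windows. Of the other motifs searched on both strands, CATCTG (11.9% of all windows) was found for Prox1, the SOX core ACAATG (8.44%) for Myt1, the forkhead motif TGTTTAC (2.67%) for Myt1, the CUT motif ATTGAT (5.19%) for Foxa2 and Myt1, and TATAAA (10.5%) for Foxa2 and Prox1. No matches of different motifs overlapped. The GC content was 72.0% for Sox2, 66.8% for Pou3f2, 50.8% for Sox4 and 58.0% for Sox11, against a median of 56.8% over all windows. These matches describe the letters of the windows, and no binding was measured.

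Sox2, a factor with an HMG box, maintains pluripotent and neural progenitor cells and is associated with lineage plasticity in prostate cancer. Its log2 values (probe set 10491477) were 10.98, 11.25 and 11.53 in VPA replicates 1, 2 and 3, against 11.53, 11.48 and 11.71 in control replicates 1, 2 and 3. VPA replicates 1 and 2 lay below every control array, while VPA replicate 3 lay above control replicates 1 and 2. The mean was 11.26 ± 0.28 in VPA arrays and 11.58 ± 0.12 in control arrays (SD, n = 3 each). The difference of -0.32 (SE 0.137) was the largest in size of the 10 factors, and 9.86% of all tested genes differed by more. It did not pass limma's test (adjusted p = 0.26), and its 95% interval ran from 0.65-fold to 0.99-fold. Without VPA replicate 3 the difference was -0.46 (adjusted p = 0.0729), and without VPA replicate 1 it was -0.18 (adjusted p = 0.537), so the size rested on which VPA array was left out. Of 12 markers of pluripotent stem cells, none passed the test. The difference was below 0 for 10 and above it for 2, where 58.6% of all genes were below 0. Their mean log2 level ran from 6.33 to 6.42 in VPA arrays, against 6.51 to 6.60 in control arrays. It is the VPA samples that the other fields call undifferentiated stem cells, and whether those fields hold was not tested. Pou5f1, a defining gene of pluripotent cells, had 4.99 to 5.50 in VPA arrays, against 5.47 to 5.86 in control arrays. It was below a log2 value of 6, the level of the low-value filter, on every array. The part of these markers in the Sox2 values was not tested.

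Sox4 and Sox11 belong to the SOXC group, which acts in newly formed neurons and in many epithelial tumours. Sox4 (probe set 10408450) had log2 values of 9.55, 9.75 and 9.21 in VPA replicates 1, 2 and 3, against 9.80, 9.75 and 9.49 in control replicates 1, 2 and 3. The groups overlapped, with the lowest value in VPA replicate 3 and the lowest control value in control replicate 3. The Sox4 difference was -0.18 (SE 0.143, n = 3 per group, limma adjusted p = 0.542). Leaving out VPA replicate 3 brought it to -0.03 (adjusted p = 0.912), and leaving out control replicate 3 or VPA replicate 2 gave -0.28 or -0.30 (adjusted p 0.46 and 0.444). Sox11 (probe set 10399725) had 7.12, 6.95 and 7.13 in VPA arrays, against 7.18, 6.65 and 6.82 in control arrays. Here control replicate 1 was the highest of all arrays, and the other two controls lay below every VPA array. The Sox11 difference was 0.18 (SE 0.132, adjusted p = 0.488). It was 0.33 without control replicate 1 (adjusted p = 0.256) and 0.07 without control replicate 2 (adjusted p = 0.763). The opposite signs of this pair were not tested against each other, and neither gene's own interval excludes no change.

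Insm1, Neurod1 and Myt1 act together in the formation of endocrine and neuronal cells. Insm1 encodes a zinc finger repressor used as a diagnostic marker of neuroendocrine tumours. Its values (probe set 10476814) were 7.12, 6.84 and 7.16 in VPA replicates 1, 2 and 3, against 7.31, 6.94 and 7.07 in control replicates 1, 2 and 3. In both groups replicate 2 was the lowest, and the difference of -0.07 (SE 0.123, adjusted p = 0.807) was smaller than the SD within either group (0.17 in VPA and 0.19 in control arrays). It turned to 0.04 without control replicate 1 and to 0.03 without VPA replicate 2. Neurod1 (probe set 10484276), a basic helix-loop-helix factor of neurons and islet cells, had 4.74, 4.66 and 4.71 in VPA arrays, against 4.70, 4.71 and 4.91 in control arrays. It was the 1 factor of 10 below a log2 value of 6 on every array, and its difference was -0.07 (SE 0.0904, adjusted p = 0.695). Control replicate 3 alone stood above the rest, and the Neurod1 difference was near 0 without it (-0.01). Myt1 (probe set 10479698), a zinc finger factor of neural and endocrine progenitors, had 6.34, 6.24 and 6.38 in VPA arrays, against 6.48, 6.36 and 6.51 in control arrays. The groups overlapped by 1 pair of arrays, since VPA replicate 3 lay above control replicate 2. Its difference was -0.14 (SE 0.0869, adjusted p = 0.439), from -0.18 to -0.10 with each array left out in turn.

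Pou3f2, also called Brn2, is a POU-domain factor of neural progenitors that is linked to neuroendocrine prostate tumours. It was the 1 factor whose groups did not overlap. Its values (probe set 10511812) were 6.19, 6.15 and 6.11 in VPA replicates 1, 2 and 3, against 6.39, 6.39 and 6.50 in control replicates 1, 2 and 3. These values lay near the log2 value of 6 used in the low-value filter, without a detection call. All VPA arrays lay below all control arrays for 1 of 10 factors and above them for 0 of 10, where 12.0% and 11.1% of all genes did so, 23.1% together. The difference was -0.27 (SE 0.0823, n = 3 per group), or 0.83-fold with a 95% interval from 0.73 to 0.94, and it did not pass limma's test (unadjusted p = 0.00815, adjusted p = 0.121). Over 17 alternative settings the adjusted p ran from 0.0853 to 0.339 and the difference from -0.29 to -0.19. A second probe set of Pou3f2 (10511810) had 3.08, 2.62 and 2.67 in VPA arrays, against 2.98, 2.96 and 2.72 in control arrays. On that probe set the groups overlapped, and the difference was -0.10. All its values lay well below the log2 value of 6, so it can neither back nor weaken the difference of the first probe set.

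Foxa2, Onecut2 and Prox1 act in endoderm as well as in endocrine cells. Foxa2 (probe set 10488374), a forkhead pioneer factor found in neuroendocrine tumours of the mouse prostate, had 7.97, 7.69 and 7.91 in VPA replicates 1, 2 and 3, against 7.95, 7.98 and 7.92 in control replicates 1, 2 and 3. Its control arrays were the closest together of the 10 factors (SD 0.03), and VPA replicate 2 alone stood apart. The Foxa2 difference was -0.09 (SE 0.0954, adjusted p = 0.631) and, without VPA replicate 2, -0.01. Onecut2 (probe set 10456248), a CUT and homeodomain factor that opposes the androgen receptor programme in prostate cancer, had 7.56, 7.30 and 7.52 in VPA arrays, against 7.56, 7.42 and 7.44 in control arrays. With -0.01 (SE 0.0971, adjusted p = 0.969) it had the smallest difference of the 10, and a 95% interval from 0.85-fold to 1.16-fold. Prox1 (probe set 10361023), a homeobox factor of lymphatic endothelium, liver and lens, had 6.29, 5.81 and 6.05 in VPA arrays, against 6.004, 5.79 and 6.05 in control arrays. The spread among VPA arrays (SD 0.24) exceeded the difference of 0.10 (SE 0.13, adjusted p = 0.702), which became -0.02 without VPA replicate 1. Of 5 endothelial markers none passed the test, and their mean log2 level was 6.96 to 7.15 in VPA arrays, against 6.90 to 7.04 in control arrays.

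**Figure D2:**
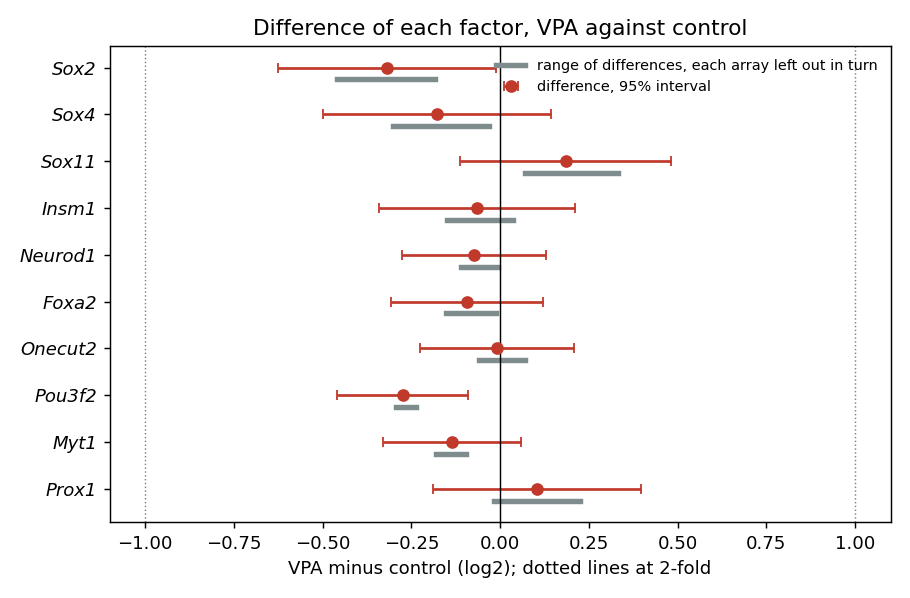
VPA minus control difference on the log2 scale (x axis) of each factor, as a point with its 95% interval; grey bars give the range when each of the 6 arrays is left out in turn, and dotted lines mark 2-fold. The intervals of Sox2 and Pou3f2 lie below 0, those of the other 8 include 0, and none reaches a dotted line.

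Several factors had their lowest values in the arrays numbered 2. Replicate 2 was the lowest of the 3 VPA arrays for 7 of 10 factors and the lowest of the 3 control arrays for 7 of 10, against 42.2% and 39.0% of all genes. VPA replicate 2 was the lowest of all 6 arrays for Insm1, Neurod1, Foxa2, Onecut2 and Myt1, and the highest for none. Over all genes it was the lowest array for 28.4% and the highest for 11.2%. Sox2, Sox4 and Pou3f2 did not follow it in VPA arrays, where the lowest value was in replicate 1 for Sox2 and in replicate 3 for Sox4 and Pou3f2. With both replicate 2 arrays left out, a comparison added after seeing the data, none of the 10 factors passed either. The whole table then held 0 calls, with 2912 genes at an unadjusted p under 0.05. Foxa2 and Onecut2 then had differences of 0.00 and 0.04, and 4 of 10 factors were above 0.

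**Figure D3:**
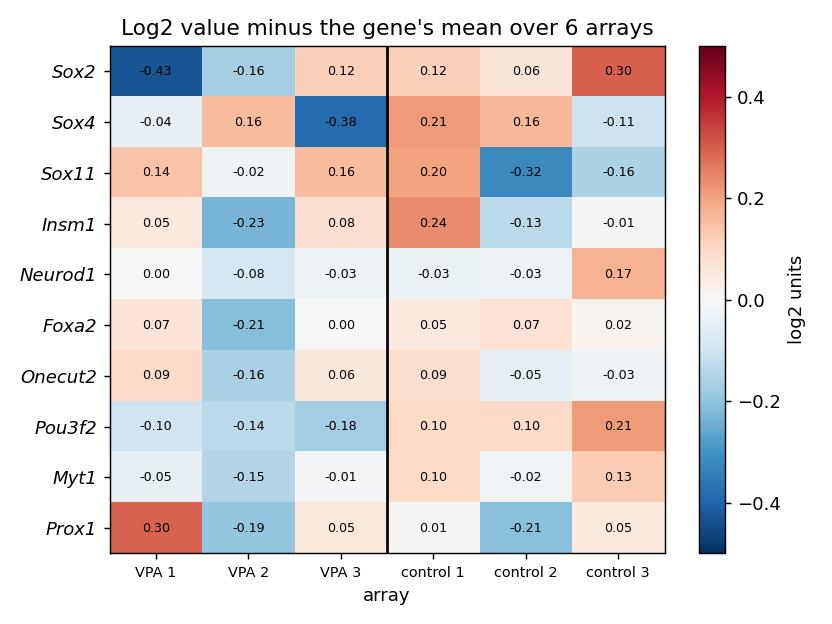
Log2 value of each factor (rows) on each array (columns, VPA left of the line and control right of it) minus the mean of that gene over the 6 arrays; red is above and blue below the mean. VPA replicate 2 is lowest for 5 factors, and for Pou3f2 alone are all 3 VPA cells blue and all 3 control cells red.

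Of 19 measured genes of the same families (such as SOX, NeuroD, forkhead A, Onecut and POU class genes), 0 rose, 0 fell and 19 did not pass, where 2.34% of all genes were called. At an unadjusted p under 0.05 there were 3 lower, where 8.30% of all genes were. Their median difference was -0.08, against -0.04 over all genes, and 17 of 19 were below 0, where 58.6% of all genes were. Neurod6, a neuronal paralogue of Neurod1, had 7.96, 8.42 and 9.07 in VPA replicates 1, 2 and 3, against 9.03, 8.97 and 9.43 in control replicates 1, 2 and 3. The groups overlapped through VPA replicate 3, and the difference was -0.66 (SE 0.24, limma adjusted p = 0.187). Sox1, of the same SOX subgroup as Sox2, had 8.31, 8.45 and 8.39 in VPA arrays, against 8.59, 8.52 and 8.72 in control arrays, all VPA values below the controls. Its difference was -0.23 (SE 0.0904, adjusted p = 0.22).

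Of 36 measured other neural and endocrine transcription factors, 1 rose with VPA, 0 fell and 35 did not pass, with a median of -0.10. The difference was below 0 for 27 of 36, where 58.6% of all genes were. The one that rose was Isl2, a LIM-homeodomain factor of motor neurons. It had 8.19, 8.28 and 8.17 in VPA replicates 1, 2 and 3, against 7.61, 7.82 and 7.88 in control replicates 1, 2 and 3, so the groups were separate. The rise was 1.36-fold (log2 0.44, SE 0.0964, adjusted p = 0.0487), at the edge of the threshold. Isl2 lost its call without any of the 6 arrays (adjusted p 0.0576 to 0.177) and passed in 5 of 17 alternative settings. Of 20 measured repressors of neural genes and of proneural factors, 0 rose, 0 fell and 20 did not pass, against the same shares of all genes. The median of the repressors was 0.03. Sin3a, a corepressor scaffold for histone deacetylases, had the smallest p, with 10.50, 10.38 and 10.43 in VPA arrays, against 10.17, 10.19 and 10.01 in control arrays. Its difference was 0.31 (adjusted p = 0.103), and that of the receptor gene Notch3 was 0.40 (adjusted p = 0.107).

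Genes that carry out the neuroendocrine and neuronal programme, downstream of such factors, included some that passed the test. Of 39 measured effector genes (vesicle proteins, prohormone convertases, cytoskeletal and neuronal RNA-binding proteins), 10 rose with VPA, 0 fell and 29 did not pass, against the 1.71% of all genes called higher. Their median difference was 0.14, with 25 of 39 above 0 and 14 below. VPA arrays lay all above the controls for 15 of 39 and all below them for 6, against 11.1% and 12.0% of all genes. The mean log2 level of the list was 7.68 to 7.85 in VPA arrays, against 7.39 to 7.42 in control arrays. Common neuroendocrine markers of the list, named after their values were seen, fell on either side of the test. Scg2 and Syp were among the 10 that rose, with differences of 0.64 and 0.90. Chga, Chgb and Snap25 were among the 29 that did not pass, with differences of -0.05, -0.11 and 0.01. The 4 largest rises were those of Syn1, Uchl1, Ptprn and Bex1, from 1.55 to 1.85 on the log2 scale (adjusted p 0.000962 to 0.0146). For Ptprn, a phosphatase-like membrane protein of dense-core vesicles, the values were 9.90, 9.72 and 9.47 in VPA replicates 1, 2 and 3, against 7.99, 8.11 and 8.05 in control replicates 1, 2 and 3. Of the 10 genes Ptprn, Bex1 and Gap43, the last named after its values were seen, passed whichever single array was left out. Syn1 and Uchl1 passed in 2 of 6 such comparisons. The lower 95% bounds of these 4 rises ran from 2.28-fold for Uchl1 to 2.62-fold for Ptprn. These 4 were picked as the largest, which the intervals do not allow for, so they cannot be set against the intervals of the 10 factors. Whether the effector list moved apart from the factors as a set was not tested, and the list was chosen with results of these arrays known. Among 8 fibroblast markers Thy1, also a neuronal surface protein, was the 1 that rose. The mean log2 level of that list was 9.07 to 9.26 in VPA arrays, against 9.00 to 9.12 in control arrays, but 4 members were higher and 4 lower. Col3a1 and Pdgfrb, a collagen and a growth factor receptor of fibroblasts, had VPA arrays all below the controls, with differences of -0.46 and -0.36 (adjusted p 0.159 and 0.0923). Without Thy1 the mean difference of the other 7 was -0.07. The part of these markers in the effector values was not tested.

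**Figure D4:**
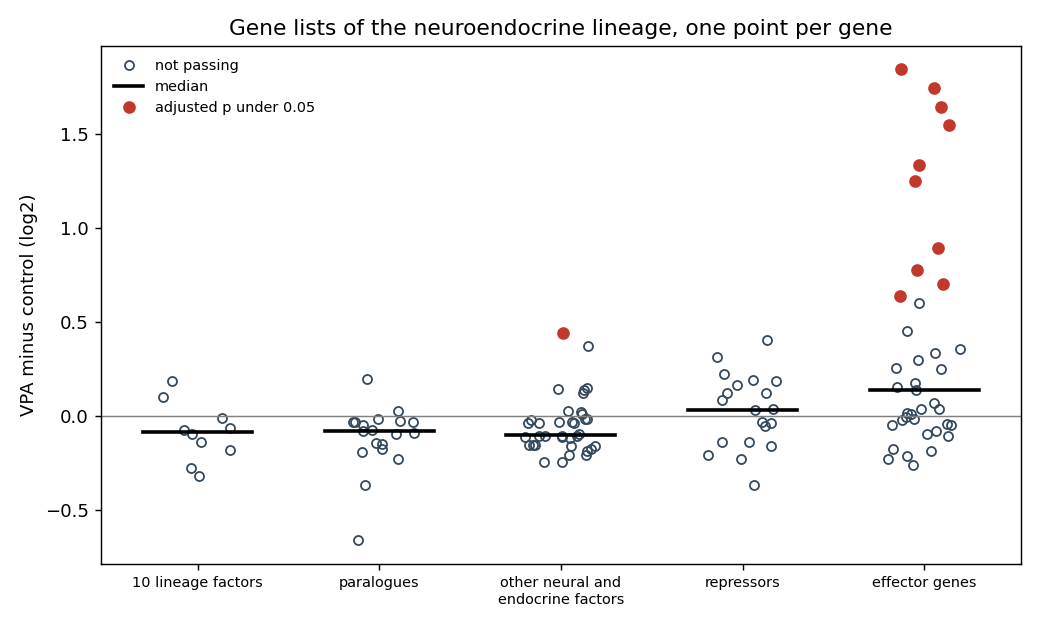
VPA minus control difference on the log2 scale (y axis) for the 10 factors, 19 paralogues, 36 other neural and endocrine factors, 20 repressors and 39 effector genes, with a point per gene and a bar at the median. Filled red points passed limma's test, 10 of them effector genes and 1 of them Isl2; the 10 factors lie between -0.32 and 0.18.

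Markers of the named cell types gave little to place the samples. Of the prostate luminal list 8 of 10 genes were measured and none passed the test, with a mean log2 level of 6.20 to 6.33 in VPA arrays, against 6.10 to 6.37 in control arrays. The 5 basal markers measured, at 7.59 to 7.65 in VPA arrays, against 7.53 to 7.70 in control arrays, and 7 leukocyte markers, at 6.09 to 6.32 in VPA arrays, against 6.18 to 6.32 in control arrays, did not pass either. Without a detection call these levels do not show which markers were absent. Precision is limited by having only 3 arrays in each group, and the median SE over all genes was 0.101.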

How the data were processed

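The authors deposited log2 values, and the submitters' processing notes name RMA and Affymetrix Expression Console. The values were used unchanged. RMA corrects background, quantile-normalizes the arrays and summarises each probe set, so a shift common to most transcripts would not show. The sources used here name no program version and no genome build. Of 35556 probe sets, 21789 carried 1 symbol in the platform annotation, and 19938 genes remained with 1 probe set each. Samples were grouped by title. VPA and control arrays were compared with lmFit and eBayes in limma 3.58.1 (R 4.3.3), in a two-sided test with no term besides the group, adjusted by Benjamini-Hochberg over all 19938 genes. The test was checked on simulated data. The labels call the replicates biological without naming separate cultures. The p-values set each difference against the spread between these samples, moderated over all genes, and that spread may be technical.

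All 10 factors are named. Of each other list, up to 4 called genes per direction with the largest differences are named, or the 2 with the smallest p. Genes most like a called factor were to be named, but no factor was called. The factors and lists were chosen with earlier results of these data known. Alternatives were a low-value filter (log2 of at least 6 on 3 or more arrays), quantile normalization repeated, median centring, a trended robust prior, a replicate block, weights for the arrays, averaging each gene's probe sets, every probe set tested, unmoderated variances, an adjusted p under 0.01, and each array left out in turn. Promoter windows came from RefSeq (GRCm38.p6), cut to the 250 bases before the start site.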

Additional observations from a re-analysis of the deposited data

How the results depend on the processing

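None of the 10 factors passed in any of the 17 alternative settings. The lowest adjusted p was 0.0729, for Sox2 without VPA replicate 3. Sox2, Sox4, Sox11, Neurod1, Pou3f2 and Myt1 kept the sign of their differences in each setting that held them, with Neurod1 removed by the low-value filter. Signs turned for differences near 0. With single arrays left out Insm1 ran from -0.149 (control replicate 2) to 0.0361 (control replicate 1), and was also above 0, at 0.0343, without VPA replicate 2. Onecut2 ran from -0.0583 (VPA replicate 1) to 0.0701 (VPA replicate 2), and was at 0.0334 without control replicate 1. Prox1 ran from -0.0174 (VPA replicate 1) to 0.226 (VPA replicate 2), and Foxa2, always below 0, from -0.152 (VPA replicate 1) to -0.011 (VPA replicate 2). Without both replicate 2 arrays Foxa2 was at 0.00206 and Onecut2 at 0.0430. The cause was not tested.

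Over all genes 467 were called. The count was 714 with array weights, 2 with every probe set tested, 0 with unmoderated variances (2898 at an unadjusted p under 0.05), 43 at an adjusted p under 0.01 and 0 without both replicate 2 arrays (2912 at an unadjusted p under 0.05). With single arrays left out it ran from 20 without control replicate 1 to 815 without VPA replicate 3. Among the 4 other lists 11 genes were called, against 2 with every probe set tested, 0 with unmoderated variances, 4 at an adjusted p under 0.01, 0 without both replicate 2 arrays and 3 to 12 with single arrays left out. The stricter threshold lowers a count by construction, and the cause of the other shifts was not tested. With the replicate number as a block 1199 genes, 0 of the 10 factors and 15 genes of the other lists were called, with adjusted p of 0.0932 for Sox2 and 0.0978 for Pou3f2. The numbers in the titles are not stated to pair the samples, so the block was kept as an alternative. Deviations from the group means correlated at 0.08, 0.45 and 0.28 between same-numbered arrays, and at -0.43 to 0.20 between the others. Control replicate 1 correlated best with VPA replicate 3 (0.20). Whether the samples were paired was not tested. Low signals have no detection call, which limits Neurod1 most. Pou3f2, Myt1 and Prox1 also lay near the low-value limit of log2 6.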
